A study of Homo sapiens with 6 samples.

Results

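GDF15, LTBP1 and 8 further ligand genes of the TGF-beta family were followed across 6 arrays of A2780, an established human ovarian cancer cell line. The set holds the ligand genes GDF15, INHBA, INHBB, INHBE, BMP2, BMP4, TGFB1, TGFB2 and TGFB3, and LTBP1, whose product binds latent TGF-beta. The members were taken by gene symbol, and all 10 were read by 1 probe set each, among 18418 genes measured. The members were chosen by gene family around GDF15 and LTBP1, which were selected on their log2 changes with both hairpins on these arrays, so the values of its members are a description and carry no test.

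Cells carried lentiviral short hairpin RNAs against BMI1, which encodes a chromatin-silencing Polycomb protein, or against the non-coding transcript FAL-1. Either target had 2 hairpins (shRNA1 and shRNA2) and a control infection of its own (BMI1 Ctrl and FAL-1 Ctrl), with 1 array for each of these 6 infections. All cells were in RPMI1640 with 10% fetal bovine serum, the virus medium was replaced after 24 hours, and RNA was taken at 96 hours. The labels do not say whether the control infections used the same hairpin, nor whether any array came from a separate culture. Values are summarised per probe set on the log2 scale, so a difference of 1 is a 2-fold difference. Levels of different genes are not compared because each probe set has its own brightness. Rough exceptions are a ranking of cell type markers and the place of low members against the array medians. The number of arrays limits the precision.

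Ligands of the TGF-beta family are secreted as dimers that bind pairs of serine/threonine kinase receptors, which phosphorylate SMAD proteins that then act on target genes in the nucleus. TGF-beta itself leaves the cell in a latent complex, in which LTBP1 tethers it to the extracellular matrix until it is released. Activins (dimers of INHBA, INHBB or INHBE products) and the bone morphogenetic proteins BMP2 and BMP4 signal through related receptors, and GDF15 is a distant relative that is made under cell stress and binds the receptor GFRAL. GDF15 is a known target of p53 and of the stress factors ATF4 and CHOP, and INHBE is known to respond to ATF4 as well. In the ovary, activins, inhibins and bone morphogenetic proteins regulate follicle growth.

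The promoters of GDF15 and LTBP1 are shown because the values of these genes separated the hairpin arrays from the control arrays. Each is the stretch of 250 bases before an annotated RefSeq start on GRCh38.p14, plus strand, 5′ to 3′. That of GDF15 is chr19:18385908-18386157, and that of LTBP1 is chr2:32946703-32946952, before the first of 3 annotated starts. Capitals mark matches on either strand to the motifs named after the sequences.
GDF15: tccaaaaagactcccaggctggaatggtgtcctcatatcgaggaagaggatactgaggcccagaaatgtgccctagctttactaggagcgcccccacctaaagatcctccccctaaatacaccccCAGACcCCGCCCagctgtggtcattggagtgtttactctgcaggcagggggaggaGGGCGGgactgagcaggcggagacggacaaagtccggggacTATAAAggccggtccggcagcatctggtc
LTBP1: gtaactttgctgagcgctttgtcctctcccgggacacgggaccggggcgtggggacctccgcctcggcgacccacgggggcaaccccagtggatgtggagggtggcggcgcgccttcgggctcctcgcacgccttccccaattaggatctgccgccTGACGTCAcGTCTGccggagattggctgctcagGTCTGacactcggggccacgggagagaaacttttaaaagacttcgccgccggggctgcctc
The search covered the SMAD box CAGAC, the GC box GGGCGG, the TATA box TATAAA, the CRE half-site TGACG, the E-box CACGTG, the C/EBP core TGCAAT, the AP-1 motif TGANTCA and the p53 half-site consensus. The GDF15 window held 1 SMAD box, 2 GC boxes and a TATA box that begins 29 bases before the start. The LTBP1 window held 2 SMAD boxes on the minus strand and the CRE half-site on both strands, with these copies overlapping. Among 35116 promoter windows of the same length, 38.0% held a SMAD box, 42.6% a GC box, 10.7% a TATA box and 21.2% a CRE half-site. These are matches of letters and not measured binding sites. The p53 half-site (in 5.57% of windows), the C/EBP core (7.03%), the AP-1 motif (6.57%) and the E-box (6.34%) had no match in either window, which says only that these letters are not there. RefSeq windows were matched for 8 of the 10 members, and those of INHBE and BMP2 were not matched.

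The arrays were checked against their labels first. The probe set that reads BMI1, also annotated to the readthrough COMMD3-BMI1, stood at 26.8% of its control with BMI1 shRNA1 and at 64.0% with shRNA2. It stood at 99.9% of the FAL-1 control with FAL-1 shRNA1 and at 79.8% with FAL-1 shRNA2. FAL-1 is not among the annotated symbols, so its knockdown was not checked. Array medians lay between 6.94 and 7.09. The file has no detection calls, so ranks of the values among all genes describe the labelled cell type only roughly. Of 9 ovarian or epithelial markers, the keratins KRT8 (mean percentile 82.0) and KRT18 (72.5) lay in the upper part, and the other 7, with PAX8, WT1, EPCAM and MUC16 among them, lay between 17.9 (CDH1) and 38.7 (WT1). The 6 fibroblast markers lay between 44.9 (PDGFRB) and 93.9 (COL3A1), the 5 leukocyte markers between 2.56 (PTPRC) and 59.0 (CD68), and the 3 endothelial markers at or below 29.9 (CDH5). The mean log2 level of the fibroblast markers was 9.06 to 9.37 on the BMI1 set and 9.52 to 9.79 on the FAL-1 set. That of the epithelial markers was 7.60 with FAL-1 shRNA2 and 6.95 to 7.25 on the other arrays, and KRT19 alone spanned 6.21 to 8.57. GDF15, INHBA, INHBB, BMP2 and BMP4 were highest with FAL-1 shRNA2 too. The leukocyte mean was 6.47 with FAL-1 shRNA2 and 6.09 to 6.28 elsewhere, and the endothelial mean was 5.98 to 6.11 on all 6 arrays. Their part in the results was not tested.

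GDF15, the stress-induced secreted ligand, was the member with the widest range, 2.66 log2 units, a range reached by 0.13% of all genes. Its log2 level was 9.49 in the BMI1 control, 10.97 with BMI1 shRNA1 and 10.95 with BMI1 shRNA2. In the other set it was 10.76 in the FAL-1 control, 11.24 with FAL-1 shRNA1 and 12.14 with FAL-1 shRNA2. All 4 hairpin arrays lay above both controls, which 9.02% of all genes also did. Against its own control GDF15 was higher by 1.47 ± 0.01 (SD, n = 2 hairpins) with BMI1 knockdown, a 2.78-fold difference. With FAL-1 knockdown it was higher by 0.93 ± 0.64 (n = 2 hairpins), or 1.90-fold, and by 0.48 with shRNA1 alone, which leaves out the array of shRNA2.

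The size of the GDF15 difference depended on which control array was used. The FAL-1 control exceeded the BMI1 control by 1.28, or 2.42-fold, and only 0.261% of genes differed as much or more between the controls in either direction. Against the FAL-1 control the BMI1 hairpins read 0.21 and 0.19, and against the BMI1 control the FAL-1 hairpins read 1.75 and 2.66. In the order of levels, the gap between the lowest hairpin array and the FAL-1 control was 0.19, less than the SD of 0.64 between the FAL-1 hairpins. The gap of 1.28 down to the BMI1 control was larger than that SD. The hairpin arrays at 11.24, 10.97 and 10.95 were also closer to each other than that SD. The FAL-1 control and these hairpin arrays lay within that SD of each other, and whether they differed was not tested. The SD of the BMI1 pair was 0.01, less than its distances of 0.21 and 0.19 from the FAL-1 control. Either SD comes from 2 different hairpins and is not the spread of a repeated infection, and the spread of a control is not known.

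**Figure D1:**
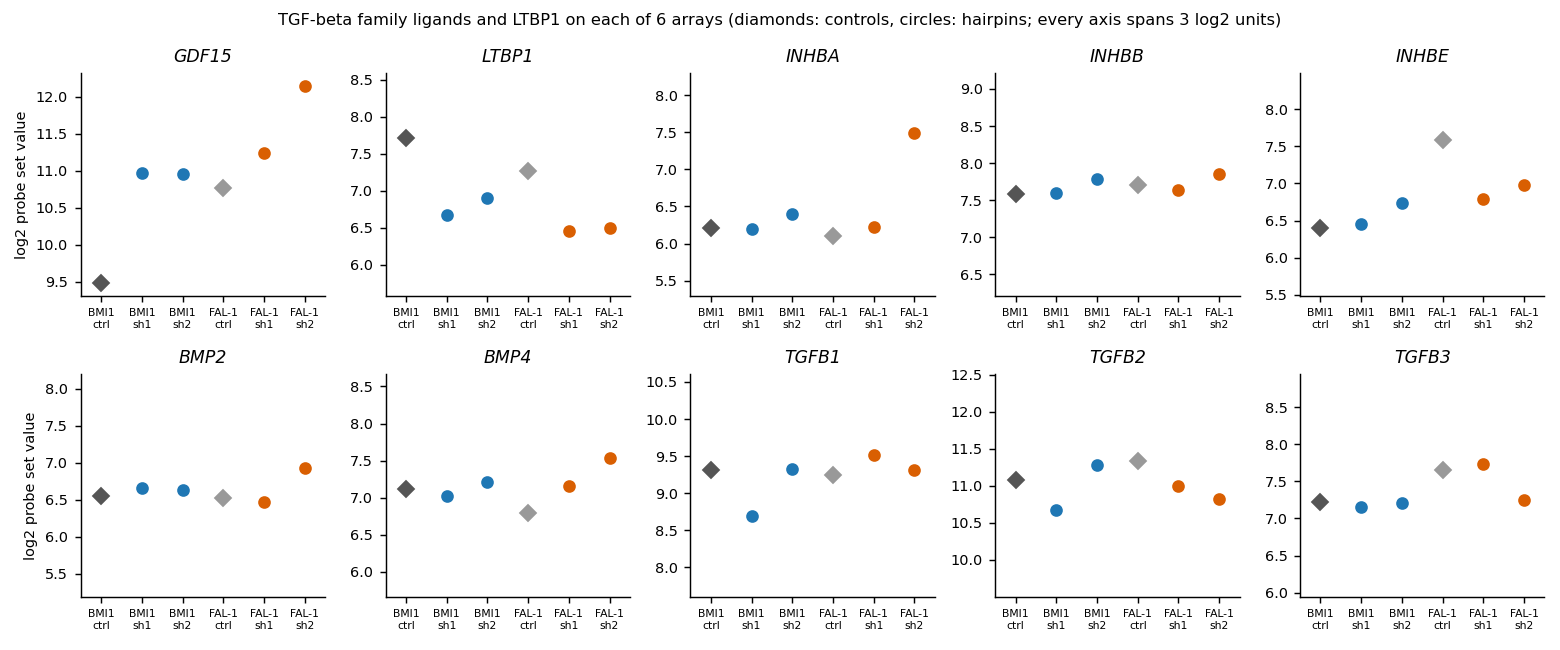
Log2 probe set value (vertical axis) of each member on the 6 arrays (horizontal axis), with diamonds for the control arrays and circles for the hairpin arrays, and axes of equal span. GDF15 runs from 9.49 to 12.14, LTBP1 is highest on the controls at 7.71 and 7.26, INHBA stands out at 7.49 with FAL-1 shRNA2, and INHBE stands out at 7.58 in the FAL-1 control.

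LTBP1, the latent TGF-beta binding protein, was lower with every hairpin than in either control. Its log2 level was 7.71 in the BMI1 control and 7.26 in the FAL-1 control. It was 6.67 and 6.90 with the BMI1 hairpins and 6.46 and 6.50 with the FAL-1 hairpins. These hairpin values lay below the lowest array median of 6.94, as did all values of BMP2 and those of INHBA outside FAL-1 shRNA2. INHBE also lay below it on every array of the BMI1 set and with FAL-1 shRNA1, and BMP4 did in the FAL-1 control. Without detection calls, how much of such low values is background is not known. The hairpin arrays and the controls did not overlap, and 8.04% of all genes lay below both controls on all 4 hairpin arrays. The gap between the lower control and the highest hairpin array was 0.36, a gap reached by 64 genes, or 0.347%. LTBP1 was lower than its own control by 0.93 ± 0.17 (n = 2 hairpins) with BMI1 knockdown, or 1.90-fold, and by 0.79 ± 0.03 (n = 2 hairpins), or 1.72-fold, with FAL-1 knockdown.

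The direction for LTBP1 held against the other control, with changed sizes. The BMI1 hairpins read -0.59 and -0.36 against the FAL-1 control, and the FAL-1 hairpins read -1.26 and -1.22 against the BMI1 control. The controls differed by 0.45 (FAL-1 control lower), which is more than the gap of 0.36 and more than the SD of either hairpin pair. Among the hairpin arrays the FAL-1 pair lay lowest, 0.17 below the nearest BMI1 array, about the SD of 0.17 of the BMI1 pair. The probe set does not tell the annotated starts of LTBP1 apart. Its paralogs were named after their values were seen. LTBP2 read -0.06, 0.16, -0.29 and 0.50 with BMI1 shRNA1 and shRNA2 and FAL-1 shRNA1 and shRNA2 against their own controls. In the same order LTBP3 read -0.45, 0.24, -0.13 and 0.46, and LTBP4 read -0.41, -0.11, -0.14 and -0.11. LTBP4, at 9.11, 9.41, 9.39 and 9.42 beside controls at 9.52 and 9.53, was like LTBP1 below both controls on all 4 hairpin arrays, with smaller differences, and LTBP2 and LTBP3 lay on both sides of theirs.

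The activin subunit genes each had a pattern of their own. INHBA, the activin A subunit, was high on 1 array only. Its level was 7.49 with FAL-1 shRNA2, and between 6.10 and 6.40 on the other 5 arrays. The mean difference with FAL-1 knockdown was 0.76 ± 0.90 (n = 2 hairpins), and 0.12 with shRNA1 alone, so the mean rests on shRNA2. With the BMI1 hairpins INHBA read -0.02 and 0.18 against its control. FST, whose product follistatin binds activin, also had its highest value with FAL-1 shRNA2, at 7.14 beside 6.18 to 6.52 on the other arrays.

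INHBE, the activin E subunit, was high in the FAL-1 control. Its level there was 7.58, beside 6.80 and 6.99 with the FAL-1 hairpins. It was 6.39 in the BMI1 control and 6.45 and 6.73 with the BMI1 hairpins. INHBE was thus lower by 0.69 ± 0.13 (n = 2 hairpins) than its own control with FAL-1 knockdown, but read 0.40 and 0.59 above the BMI1 control. With BMI1 knockdown it read 0.05 and 0.34 against its own control, and -1.13 and -0.85 against the FAL-1 control. The direction therefore changed with the control for both targets, and the controls differed by 1.19, or 2.27-fold. INHBB, the activin B subunit, had the smallest range of the members, from 7.58 to 7.85. INHA, which pairs with an INHBA or INHBB subunit to form inhibin and was named after its values were seen, read between -0.19 and 0.19 with the hairpins against their own controls.

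The bone morphogenetic protein genes were highest with FAL-1 shRNA2. BMP4 read 6.79 in the FAL-1 control, 7.15 with FAL-1 shRNA1 and 7.54 with FAL-1 shRNA2. It read 7.12 in the BMI1 control and 7.02 and 7.21 with the BMI1 hairpins. The difference with FAL-1 knockdown was 0.55 ± 0.27 (n = 2 hairpins) against its own control and 0.23 against the BMI1 control. The FAL-1 shRNA1 array lay within the range of the BMI1 set. BMP2 read 6.47 to 6.92 over the 6 arrays, with a difference of 0.17 ± 0.32 with FAL-1 knockdown and 0.09 ± 0.02 with BMI1 knockdown (n = 2 hairpins each).

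The genes of TGF-beta proper differed little, and the hairpins of a target often disagreed. TGFB1 read 8.69 with BMI1 shRNA1 and between 9.25 and 9.52 on the other 5 arrays, so its difference with BMI1 knockdown was -0.30 ± 0.45 (n = 2 hairpins). Without shRNA1 it read 0.02. TGFB2 read 11.08 in the BMI1 control, 10.68 with BMI1 shRNA1 and 11.28 with BMI1 shRNA2. In the FAL-1 set it read 11.33 in the control and 10.99 and 10.82 with the hairpins, lower by 0.43 ± 0.12 (n = 2 hairpins), and lower by 0.18 than the BMI1 control. TGFB3 read 7.65 in the FAL-1 control and 7.73 and 7.25 with the FAL-1 hairpins, and it stayed between 7.16 and 7.22 on the BMI1 set.

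**Figure D2:**
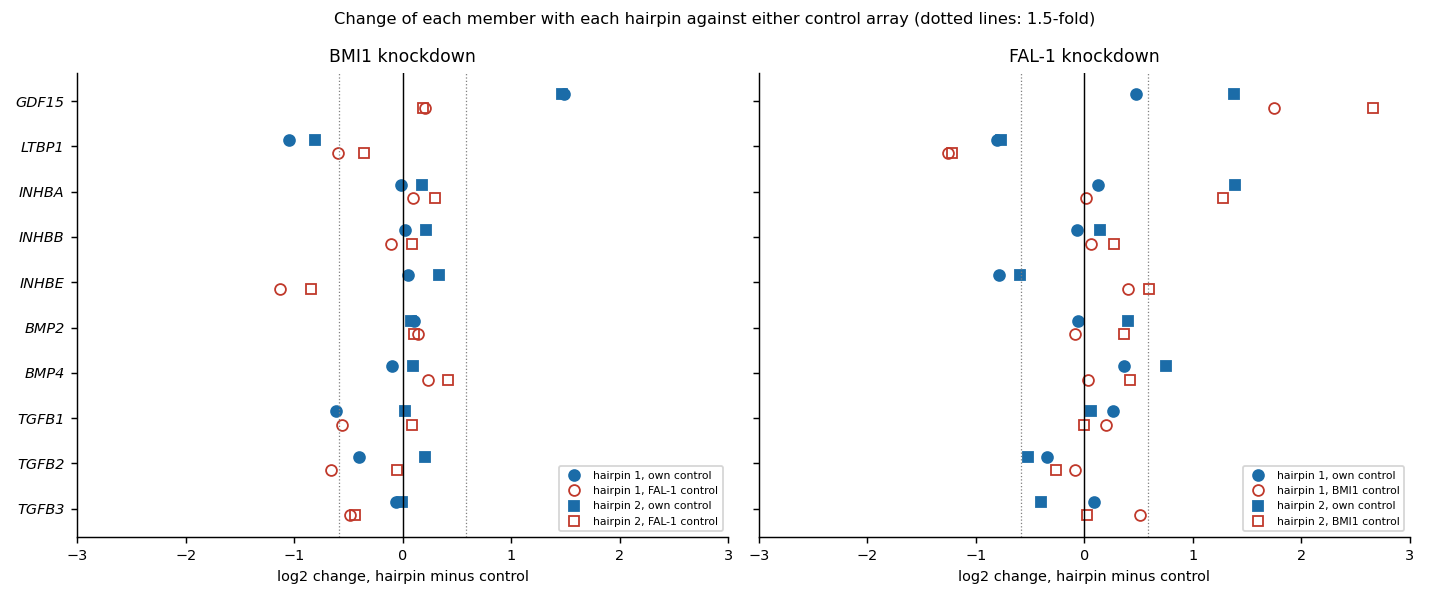
Log2 change (horizontal axis) of each member (rows) with hairpin 1 (circles) and hairpin 2 (squares), against the control of the same target (filled) and against the other control (open), with dotted lines at 1.5-fold. LTBP1 lies below 0 in every case, GDF15 above 0 in every case with 0.19 to 2.66, and the INHBE points change side between the controls.

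At 1.5-fold or more the same way with both hairpins of a target against its own control, GDF15 was the member that was higher with BMI1 knockdown, among 0.538% of all genes, and LTBP1 the member that was lower, among 0.901%. With FAL-1 knockdown none of the 10 members was higher by that rule, among 0.576% of all genes. LTBP1 and INHBE were lower, among 0.635%. Against the other control the members past 1.5-fold were INHBE (lower, background 2.05%) for BMI1 knockdown, with none higher (background 0.966%). For FAL-1 knockdown they were GDF15 (higher, background 2.47%) and LTBP1 (lower, background 1.5%). Regardless of size, 4 members were above and 2 below their own control with both BMI1 hairpins, where 32.9% and 30.7% of all genes were. With both FAL-1 hairpins 4 were above and 3 below, where 37.2% and 27.7% of all genes were. The median change of the 10 members was 0.04 with BMI1 knockdown and 0.10 with FAL-1 knockdown, beside 0.01 and 0.03 over all genes. Since these contrasts entered the choice of members, the counts describe the set and are not evidence for it.

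Receptors, regulators and target genes of the pathway were taken from 7 lists by role, together 108 measured genes. None of these passed limma's test for either target, as no gene of the array did (0.0% of 18418 genes, smallest adjusted p = 0.9998 for BMI1 and 0.9991 for FAL-1 knockdown). At an unadjusted p under 0.05 in limma, 477 genes of the array were left for BMI1 and 563 for FAL-1 knockdown. Of the pathway genes, 1 reached that level for each target, and it was higher, as were 1.03% of all genes for BMI1 and 1.55% for FAL-1 knockdown. They were TIMP1, an inhibitor of matrix proteases, at 0.48 and 0.53 with the BMI1 hairpins, and ITGA5, the fibronectin receptor subunit, at 0.49 and 0.76 with the FAL-1 hairpins. At 1.5-fold with both hairpins, 1 of the 108 was higher with each target, near the 0.538% and 0.576% over all genes, and none was lower, beside 0.901% and 0.635%.

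The other 23 family ligands moved little, with mean changes between -0.17 (BMP7) and 0.40 (LEFTY2) for BMI1 and between -0.19 (BMP7) and 0.23 (GDF7) for FAL-1 knockdown. Over the 14 receptors and co-receptors the medians were 0.03 and 0.10. TGFBR1, the type I receptor of TGF-beta, read -0.03 and 0.10 with the BMI1 hairpins and -0.40 and 0.39 with the FAL-1 hairpins. TGFBR2, the type II receptor, read 0.03 and 0.14, and 0.49 and 0.23. Neither differed from its control beyond limma's threshold (adjusted p = 0.9998 and 0.9991 for TGFBR2, and 0.9998 and 0.9999 for TGFBR1).

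Genes of latency and activation had medians of 0.12 for BMI1 and 0.17 for FAL-1 knockdown over 17 genes. The widest value was that of THBS1, thrombospondin 1, which can release active TGF-beta. It read 9.73 with FAL-1 shRNA2 and 6.74 to 7.47 on the other 5 arrays, so it too stood out on that array alone. The 18 extracellular antagonists had medians of 0.01 and 0.07, and the lowest mean change was that of FSTL1 for both targets, at -0.30 and -0.86. None of the 18, FSTL1 included, was lower than the own control by 1.5-fold with both hairpins of a target, beside 0.901% and 0.635% of all genes. The 16 SMADs and their regulators had medians of 0.06 and 0.02. SMAD7, the feedback inhibitor, read -0.22 and 0.33 with the BMI1 hairpins and -0.19 and 0.12 with the FAL-1 hairpins, so the hairpins of each target lay on opposite sides of the control.

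Against the own control, genes known to respond to TGF-beta had the highest medians of the pathway lists, 0.23 with BMI1 and 0.37 with FAL-1 knockdown over 15 genes. Of these, 9 and 11 lay above the own control with each hairpin, where 32.9% and 37.2% of all genes did. By single arrays, the median was 0.08 with BMI1 shRNA1 and 0.09 with FAL-1 shRNA1, and 0.33 and 0.53 with the shRNA2 of each target. Against the other target's control the medians were 0.10 for BMI1 and 0.37 for FAL-1 knockdown. For BMI1 the BMP response list (0.36) and the SMADs and their regulators (0.12) then had higher medians. CCN2, a matricellular protein gene that TGF-beta and other signals induce, was the gene past 1.5-fold for both targets against the own control. It read 9.07 in the BMI1 control and 10.28 and 10.13 with the BMI1 hairpins, a difference of 1.13 (limma SE 0.76, adjusted p = 0.9998). In the FAL-1 set it read 8.59, 9.22 and 11.03, a difference of 1.53 (limma SE 0.76, adjusted p = 0.9991), and 0.63 with shRNA1 alone. Against the other target's control CCN2 read 1.68 and 1.54 with the BMI1 hairpins and 0.15 and 1.96 with the FAL-1 hairpins. With FAL-1 shRNA1 it was thus short of 1.5-fold against that control. Over the 12 BMP response genes the medians were 0.14 and 0.06. ID1, a direct BMP target that blocks differentiation factors, read 0.04 and 0.82 with the BMI1 hairpins and 0.56 and 1.23 with the FAL-1 hairpins.

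**Figure D3:**
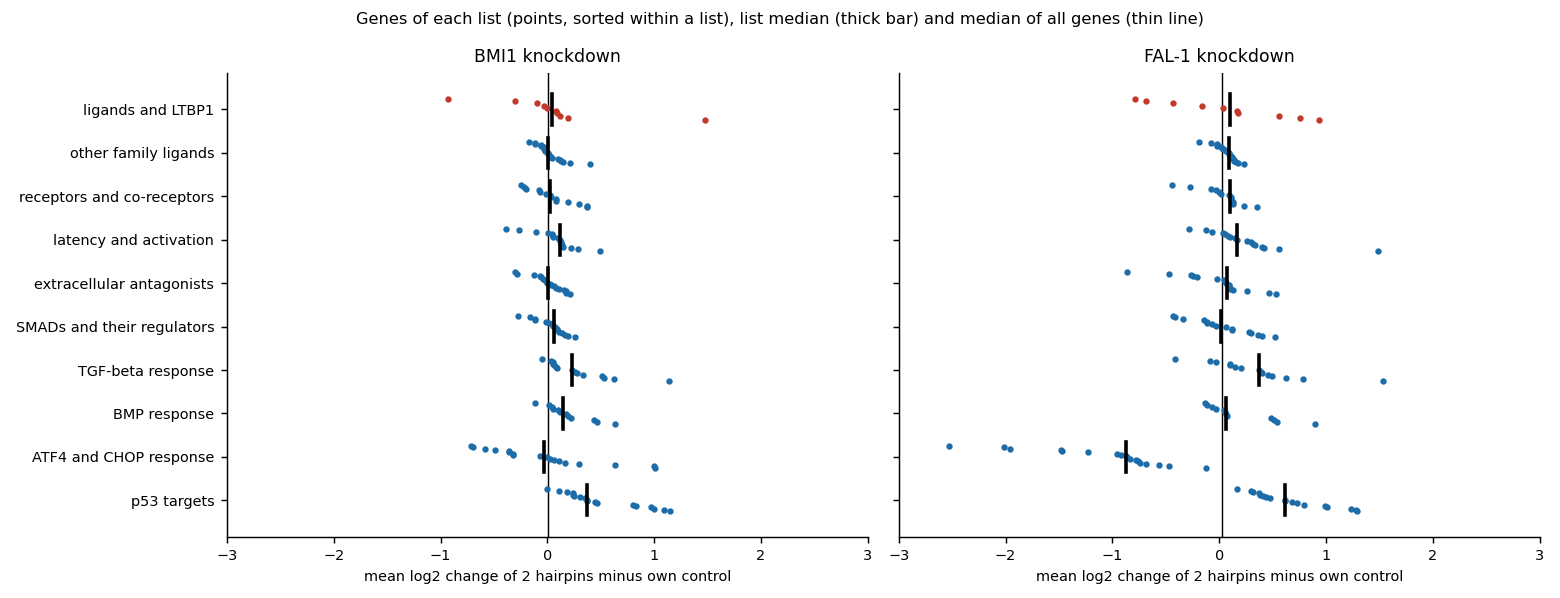
Mean log2 change over the 2 hairpins against the own control (horizontal axis) for the genes of each list (points, sorted within a row), with the list median as a thick bar and the median of all genes as a thin line. The members spread from -0.93 to 1.47 with BMI1 knockdown, and the ATF4 and CHOP response list has its median at -0.87 with FAL-1 knockdown and -0.04 with BMI1 knockdown.

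The stress genes that share known regulators with GDF15 and INHBE were read beside them. Of 18 ATF4 and CHOP response genes, all 18 were higher in the FAL-1 control than in the BMI1 control, with a median difference of 1.06 beside 0.02 over all genes, and 14 were higher by 1.5-fold or more, as were 1.65% of all genes. GDF15 and INHBE were higher in that control by 1.28 and 1.19. DDIT3, which encodes CHOP, read 7.34 in the BMI1 control and 10.07 in the FAL-1 control. It read 8.29 and 8.39 with the BMI1 hairpins and 9.12 and 9.16 with the FAL-1 hairpins, so its differences from the own control were 0.95 and 1.05, and -0.94 and -0.90. ATF4 itself read -0.44 and -0.20 with the BMI1 hairpins and -0.36 and -0.78 with the FAL-1 hairpins. With FAL-1 knockdown 17 of the 18 genes were below the own control with both hairpins, where GDF15 was above it, and 12 were lower by 1.5-fold or more, beside 27.7% and 0.635% of all genes. Against the BMI1 control 5 of the 18 were below with both FAL-1 hairpins, 1 was lower and 2 were higher by 1.5-fold, and the list median was -0.05 in place of -0.87. The widest against the own control were SLC7A11, a cystine transporter, at -2.98 and -2.08, CHAC1, which degrades glutathione, at -2.05 and -1.98, and STC2, a secreted glycoprotein, at -1.94 and -1.98. With BMI1 knockdown 2 of the 18 were higher by 1.5-fold or more, DDIT3 and SESN2 (0.92 and 1.10), and 1 was lower, PHGDH, an enzyme of serine synthesis (-0.79 and -0.64), beside 0.538% and 0.901% of all genes. Against the FAL-1 control all 18 were below with both BMI1 hairpins, DDIT3 and SESN2 included. By 1.5-fold 13 were then lower and 0 higher, beside 2.05% and 0.966% of all genes.

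Among 18 p53 targets, 17 were above their own control with both hairpins for each target, beside 32.9% and 37.2% of all genes, with medians of 0.37 and 0.62. Past 1.5-fold for each hairpin of a target were 6 of them (all higher) in BMI1 and 4 (all higher) in FAL-1 knockdown, beside 0.538% and 0.576% of all genes higher. Against the other target's control these counts were 6 and 7, beside 0.966% and 2.47% of all genes higher. At 2-fold against the own control they were 1 and 0, where 19 and 6 of all 18418 genes were higher. The controls differed in these genes by a median of 0.05, with none at 1.5-fold higher in the FAL-1 control. CDKN1A, which encodes p21, read 0.84 and 1.15 with the BMI1 hairpins and 0.52 and 2.05 with the FAL-1 hairpins. MDM2, the p53 ubiquitin ligase, read 0.24 and 0.23, and 0.32 and 0.64. TP53I3 read 1.22 and 1.08, and 0.65 and 1.37, and FAS, a death receptor, read 0.98 and 1.20, and 0.65 and 1.90. TP53INP1 read 0.87 and 1.06 with the BMI1 hairpins, and ZMAT3 read 0.87 and 1.60 with the FAL-1 hairpins. None of these genes passed limma's test (smallest adjusted p = 0.9998 for BMI1 and 0.9991 for FAL-1 knockdown). Above both controls on all 4 hairpin arrays, as GDF15 was, were 14 of the 18 p53 targets and 0 of the 18 ATF4 and CHOP response genes, beside 9.02% of all genes. Below both controls on these arrays were 0 and 3, beside 8.04%. Of all 108 pathway genes, 16 lay above both controls on the 4 hairpin arrays and 7 below. Those above included 6 of the 15 TGF-beta response genes and 4 of the 17 latency and activation genes. The part of any of these groups in the GDF15 values was not tested.

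The genes closest in profile were found by the root mean square difference of centred log2 values over the 6 arrays, for the 4 members that span at least 1 log2 unit, as 9.85% of all genes do. For GDF15 they were TRIM55 at 0.18, MYOF at 0.24, H4C8 (a histone gene whose probe set may also read near-identical copies) at 0.24, SERPINB8 at 0.25 and EGR1 at 0.25. EGR1, an immediate early transcription factor, read 9.54 in the BMI1 control and 10.65 in the FAL-1 control. It read 10.52 and 10.37 with the BMI1 hairpins and 10.66 and 11.64 with the FAL-1 hairpins. For LTBP1 they were EMC3-AS1 at 0.08, CAMK1D at 0.14, DGKE at 0.15, TAS2R4 at 0.15 and SCARA3 at 0.16, and all of these were higher in both controls than with any hairpin.

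For INHBA the closest genes were LGALS8 at 0.06, the chemokine CCL2 at 0.11, WWTR1 at 0.12, ABHD2 at 0.12 and ARB2BP at 0.13. Each had its highest value with FAL-1 shRNA2, 7.68 for CCL2 beside 6.23 to 6.62 on the other arrays. For INHBE they were CEBPB at 0.13, C12orf57 at 0.15, ATF3 at 0.16, RAB39B at 0.16 and COL12A1 at 0.17. CEBPB and ATF3 are stress transcription factors and belong to the ATF4 and CHOP response list. ATF3 read 7.28 in the FAL-1 control, 6.29 and 6.78 with the FAL-1 hairpins, 6.21 in the BMI1 control, and 6.23 and 6.78 with the BMI1 hairpins. Closeness says only that these values ran alike on these arrays.

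**Figure D4:**
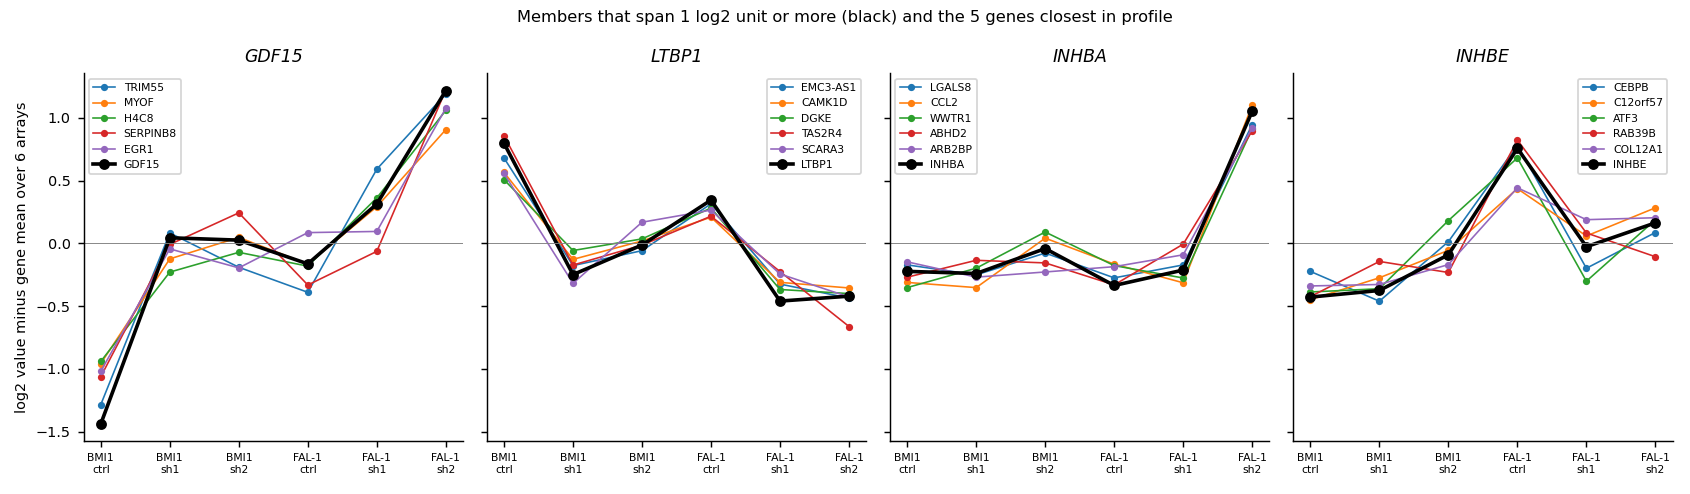
Log2 value minus the gene's mean over 6 arrays (vertical axis) on each array (horizontal axis) for GDF15, LTBP1, INHBA and INHBE (black) and the 5 genes with the smallest root mean square difference from each (coloured). GDF15 and its neighbours are lowest in the BMI1 control and highest with FAL-1 shRNA2, INHBA and its neighbours are high on that array only, and INHBE and its neighbours peak in the FAL-1 control.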

How the data were processed

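Biotin-labelled cDNA made from total RNA was read on Affymetrix arrays with 1 colour (labels' protocols). The authors deposited 1 table of log2 probe set values, 33252 by 6 arrays, made with RMA (background correction, normalization and probe summary) per the submitters' processing notes. The log2 scale was judged from the range of the values, while the version of RMA, its software and the genome build were not given in the sources used here. RMA shrinks differences of dim probe sets, so folds of low genes can be understated.

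Gene symbols came from the platform's annotation. Of the probe sets, 19460 had 1 symbol, 1754 had several and 12038 had none there. The brightest on average stood for each gene, which left 18418 genes. Those with several were not used, apart from that of BMI1. Some genes of the lists are not analysed here.

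All 6 arrays entered 1 limma fit (3.58.1, R 4.3.3) with 4 group means, eBayes and two-sided tests. P-values were adjusted by Benjamini-Hochberg over all 18418 genes, with a threshold of 0.05. The spread has 2 residual degrees of freedom from the hairpin pairs, and single control arrays were taken to vary equally. Separate cultures are not described, so p-values measure only the spread between the 2 hairpins of a target on these arrays. Differences between hairpins and technical variation cannot be told apart in that spread. On simulated data for the BMI1 comparison (18418 genes, 20 runs) 0% of genes changed 2-fold and 32.4% of genes changed 4-fold were called. Members, lists and motifs were chosen with earlier results of these data known. Counts of genes that lie on 1 side of both controls were added after the data were seen. Besides the members and 12 measured genes fixed by name, named genes were those past 1.5-fold with both hairpins (up to 3 per list and target) and the 5 closest in profile. TIMP1, ITGA5, THBS1, FSTL1, BMP7, LEFTY2, GDF7, INHA and LTBP2 to LTBP4 were named after their values were seen. Figures used matplotlib 3.10.9 (Python 3.11.15).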

Additional observations from a re-analysis of the deposited data

Results flagged for a closer look

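INHBE differed in direction between the targets when each was set against its own control. Both BMI1 hairpins were above their control and both FAL-1 hairpins below theirs, and the mean changes differed by 0.88 on the log2 scale. The same opposite directions were seen for DDIT3, where the changes differed by 1.92, and for ATF3, where they differed by 1.04. These differences were not tested. The FAL-1 control was the highest of the 6 arrays for all 3 genes, at 7.58 for INHBE, 10.07 for DDIT3 and 7.28 for ATF3. The BMI1 control was the lowest for all 3, at 6.39, 7.34 and 6.21 in that order. Against either control taken alone, the hairpins of both targets therefore lay on the same side.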

How the results depend on the processing

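No gene passed limma's adjusted threshold for either target under any of the 12 alternatives run for each. With the replicate block (the hairpin number as a block) 0 genes passed for each target. Hairpins with the same number share only that number, and the correlation across genes of shRNA1 minus shRNA2 between the targets was 0.28. Leaving out 1 hairpin array gave 0 calls as well.

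The choice of control moved most values. Against the other target's control GDF15 read 0.20 for BMI1 and 2.20 for FAL-1 knockdown, LTBP1 read -0.48 and -1.24, and INHBE for FAL-1 knockdown turned from -0.69 to 0.50. Against the mean of both controls GDF15 read 0.84 for BMI1 and 1.57 for FAL-1 knockdown, and LTBP1 read -0.70 and -1.01. With quantile normalization and cyclic loess GDF15 read 1.51 for BMI1 knockdown under each, and with cyclic loess LTBP1 read -0.82 for FAL-1 knockdown. Without 1 hairpin GDF15 ranged from 1.46 to 1.48 for BMI1 and from 0.48 to 1.38 for FAL-1 knockdown, and LTBP1 from -1.05 to -0.81 and from -0.81 to -0.77. Of 80 values for the other 8 members under another control, normalization or probe set rule, 8 changed sign, all of them under another choice of control. None of the 32 values under a normalization changed sign. The probe set rule could not change any value, because each member has 1 probe set. Of their 32 values without 1 hairpin, 7 changed sign. Against the mean of both controls 6 of the 18 ATF4 and CHOP genes were lower by 1.5-fold and 0 higher for each target.

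Genes at 1.5-fold numbered 99 higher and 166 lower for BMI1, and 106 and 117 for FAL-1 knockdown. Against the other control they numbered 178 and 378, and 455 and 277, with 192 higher for FAL-1 against the mean of both controls. At 2-fold they numbered 19 and 17, and 6 and 12. Of the 108 pathway genes, 4 were higher and 1 lower by 1.5-fold against the other control for BMI1, beside 0.966% and 2.05% of all genes. For FAL-1 these counts were 5 and 2, beside 2.47% and 1.5% of all genes. For FAL-1 2 were higher against the mean of both controls, and 0 at 2-fold. The causes were not tested. The 2 residual degrees of freedom and single control arrays limit every comparison.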
